A study of Homo sapiens with 9 samples.

Results

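The subunits of the mitochondrial respiratory chain that are encoded in the nucleus were measured by RNA sequencing in the prostate carcinoma cell line DU145, an established human line. The set was taken by gene symbol alone: it held every gene of the deposited table whose symbol begins with NDUFA, NDUFB, NDUFC, NDUFS, NDUFV, UQCR, COX4, COX5, COX6, COX7, COX8 or ATP5, or is SDHA, SDHB, SDHC, SDHD or CYC1, without the NDUFAF assembly factors. This gave 87 of 16772 genes: 37 of complex I, 4 of complex II, 10 of complex III, 17 of complex IV and 19 of complex V. The cells, labelled as wild type in genotype, had been cultured for 6 days with H93 at 20 µM, with SAHA at 500 nM or with the solvent DMSO, and each group had 3 libraries. Both compounds were dissolved in DMSO and the medium was changed daily. The series title presents H93 as a compound directed at UHRF1, a protein that helps to copy DNA methylation after replication, and SAHA (vorinostat) is a histone deacetylase inhibitor. The labels print the dose units as lower-case m, read here as molar. All libraries came from 1 cell line, and the labels do not say whether replicates were separate cultures, so a p-value here reflects how libraries of a group differ, which may be technical spread alone.

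Complex I passes electrons from NADH to ubiquinone, complex II from succinate to ubiquinone, complex III from ubiquinol to cytochrome c and complex IV from cytochrome c to oxygen. Complexes I, III and IV pump protons across the inner mitochondrial membrane, and complex V, the ATP synthase, lets them flow back through a rotating ring of c subunits to make ATP. Except for complex II, each complex combines nuclear-encoded subunits with subunits encoded in mitochondrial DNA, and the mitochondrially encoded mRNAs were not analysed here.

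Values are FPKM, sequenced fragments scaled by transcript length and by library size. Library sums of FPKM lay between 348656 and 355741, and the members made up between 2.18% and 2.23% of them. Absolute read depth is unknown. The epithelial keratin genes KRT8 and KRT18 stood at 653 to 737 FPKM. The leukocyte gene PTPRC reached at most 0.0179 FPKM. EPCAM and CDH1, 2 epithelial adhesion genes, were lower in each treated library than in each DMSO library (EPCAM 29.6 to 31.7 FPKM with H93, 35.7 to 39.4 with SAHA and 66.1 to 67.7 with DMSO). CD68, here a blood-cell marker, went the other way, and the part of these shifts in the results was not tested. The 2 blood-cell markers in the table, CD68 and PTPRC, summed to 27.4 to 29.1 FPKM with H93, 31.5 to 34.9 with SAHA and 22.1 to 22.8 with DMSO, and the fibroblast markers COL1A1, COL3A1 and DCN summed to 3.42 to 3.83 FPKM with H93, 3.32 to 4.3 with SAHA and 2.23 to 2.96 with DMSO.

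Of the 87 members, 82 reached 1 FPKM in at least 3 libraries and entered the test. The 5 others stayed at or below 0.842 FPKM in each library: COX4I2, COX7A1, COX8C, NDUFA4L2 and ATP5MGL. COX4I2 and COX7A1 are the lung and the heart and skeletal muscle forms of their subunits, and their common counterparts COX4I1 and COX7A2 averaged far higher, at 264 and 57.4 FPKM. The testis form COX6B2 averaged 1.06 FPKM beside 210.5 FPKM of the common form COX6B1. The highest member was ATP5F1B, the catalytic beta subunit of ATP synthase, with a mean of 642 FPKM over the 9 libraries, followed by the complex IV subunit COX8A with 383 FPKM. The lowest tested subunit of complex I was NDUFC2 with 3.37 FPKM, and the highest was NDUFB9 with 172 FPKM.

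**Figure D1:**
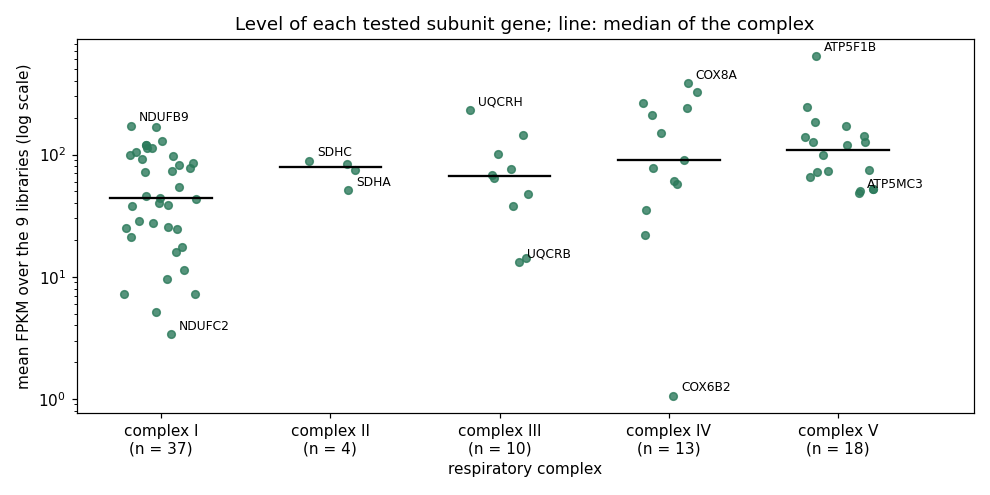
Mean FPKM over the 9 libraries (vertical log axis) of each of the 82 tested subunit genes, by respiratory complex, with a line at the median of each complex. The highest and the lowest gene of each complex are named: ATP5F1B reached 642 FPKM, and COX6B2 stood at 1.06 FPKM.

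Promoters of respiratory chain genes are known for sites of the factors NRF1, GABPA (an ETS factor), YY1, ERR and SP1. RefSeq promoter windows of GRCh38.p14, each from 250 bases before to 50 bases after a gene's start, were available for 70 of the 87 members, and 10 of these had several windows. The letters GCGCANGCG (NRF1) stood in 28.4% of the 81 windows of tested members, against 13.1% of the 13875 windows of all tested protein-coding genes. CCGGAAG (ETS) stood in 27.2%, against 17.7%, AAGATGGCG (YY1) in 12.3%, against 3.6%, TCAAGGTCA (ERR) in 1.23%, against 0.144%, and GGGGCGGGG (SP1) in 14.8%, against 26.3%. The ERR shares rest on 1 of the 81 windows and on 20 of the 13875 windows. Both strands were searched and no tested motif contains another. The NRF1 letters were found in 8 of 26 windows of members higher with H93 than with DMSO, in 6 of 29 windows of members that were lower and in 9 of 26 windows of members that did not pass, and the ETS letters in 6, 6 and 10 of the same windows. A match describes letters and not an occupied site. The windows of 2 members that fell with H93 and of 2 that rose are shown, since both pairs carry NRF1 letters. They lie at chr5:218070-218369 on the + strand, chr4:674227-674526 on the - strand, chr10:7787927-7788226 on the + strand and chr12:120437863-120438162 on the + strand, and capitals mark NRF1 and ETS letters in either orientation.
SDHA: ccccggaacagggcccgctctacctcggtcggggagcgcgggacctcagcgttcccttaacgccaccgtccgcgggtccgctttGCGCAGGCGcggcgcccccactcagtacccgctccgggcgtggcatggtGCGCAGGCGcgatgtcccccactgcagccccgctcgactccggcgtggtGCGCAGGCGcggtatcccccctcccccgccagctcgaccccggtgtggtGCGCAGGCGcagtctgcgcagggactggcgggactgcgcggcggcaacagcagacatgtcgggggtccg
ATP5ME: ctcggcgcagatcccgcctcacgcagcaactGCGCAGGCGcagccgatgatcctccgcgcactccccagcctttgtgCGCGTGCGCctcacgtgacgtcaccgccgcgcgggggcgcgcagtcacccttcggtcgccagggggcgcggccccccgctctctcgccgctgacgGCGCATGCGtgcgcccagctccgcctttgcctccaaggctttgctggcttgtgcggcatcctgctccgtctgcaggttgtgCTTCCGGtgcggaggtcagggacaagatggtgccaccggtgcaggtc
ATP5F1C: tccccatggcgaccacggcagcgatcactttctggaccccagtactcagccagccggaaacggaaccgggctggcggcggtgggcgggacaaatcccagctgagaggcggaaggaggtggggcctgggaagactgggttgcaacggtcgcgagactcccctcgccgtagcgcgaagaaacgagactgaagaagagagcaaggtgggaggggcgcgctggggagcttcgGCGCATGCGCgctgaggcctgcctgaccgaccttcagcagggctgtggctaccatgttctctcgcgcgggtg
COX6A1: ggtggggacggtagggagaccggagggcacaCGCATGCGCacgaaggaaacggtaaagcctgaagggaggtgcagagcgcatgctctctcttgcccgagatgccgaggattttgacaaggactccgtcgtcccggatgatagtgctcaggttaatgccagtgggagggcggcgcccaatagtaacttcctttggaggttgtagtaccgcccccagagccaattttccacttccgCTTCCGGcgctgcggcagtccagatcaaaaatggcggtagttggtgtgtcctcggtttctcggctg
The SDHA window held 4 NRF1 matches 49 bases apart from start to start. The ATP5ME window held 3 NRF1 matches and 1 ETS match. ATP5F1C had 2 overlapping NRF1 matches, 1 on each strand, and COX6A1 had 1 NRF1 and 1 ETS match.

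The first comparisons asked whether H93 or SAHA changed the subunit mRNAs relative to DMSO. With H93, 27 members were higher and 27 were lower than with DMSO, and 28 of 82 did not pass an adjusted p of 0.05 (limma, adjusted by Benjamini-Hochberg over the 11525 genes tested). That was 65.9% of the members called, where 69.8% of all tested genes were called (34.9% higher and 35% lower). The median log2 difference was -0.01 over the members and 0.00 over all tested genes, and the median absolute difference was 0.14 for members and 0.20 for all genes. Members ranged from -0.42 to 0.56, none changed 2-fold, and 11 changed by at least 1.25-fold. With SAHA, 22 members were higher and 21 were lower than with DMSO, or 52.4% called beside 58.8% of all genes (27.4% higher and 31.4% lower). The median was -0.01 for members and for all genes, members ranged from -0.30 to 0.37, and 4 changed by at least 1.25-fold. With each compound the called members were thus split between both directions, and their called share was near that of all genes. The libraries of the groups did not overlap for 30 members higher and 30 lower with H93 than with DMSO, where 73.2% of all genes did not overlap (36.4% higher and 36.8% lower). With SAHA this held for 23 members higher and 26 lower, beside 64.1% of all genes (29.7% higher and 34.4% lower). In bulk RNA of this kind, fewer cells of a type and less RNA per cell cannot be told apart. The 2 comparisons share the DMSO libraries, so their values are given side by side.

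**Figure D2:**
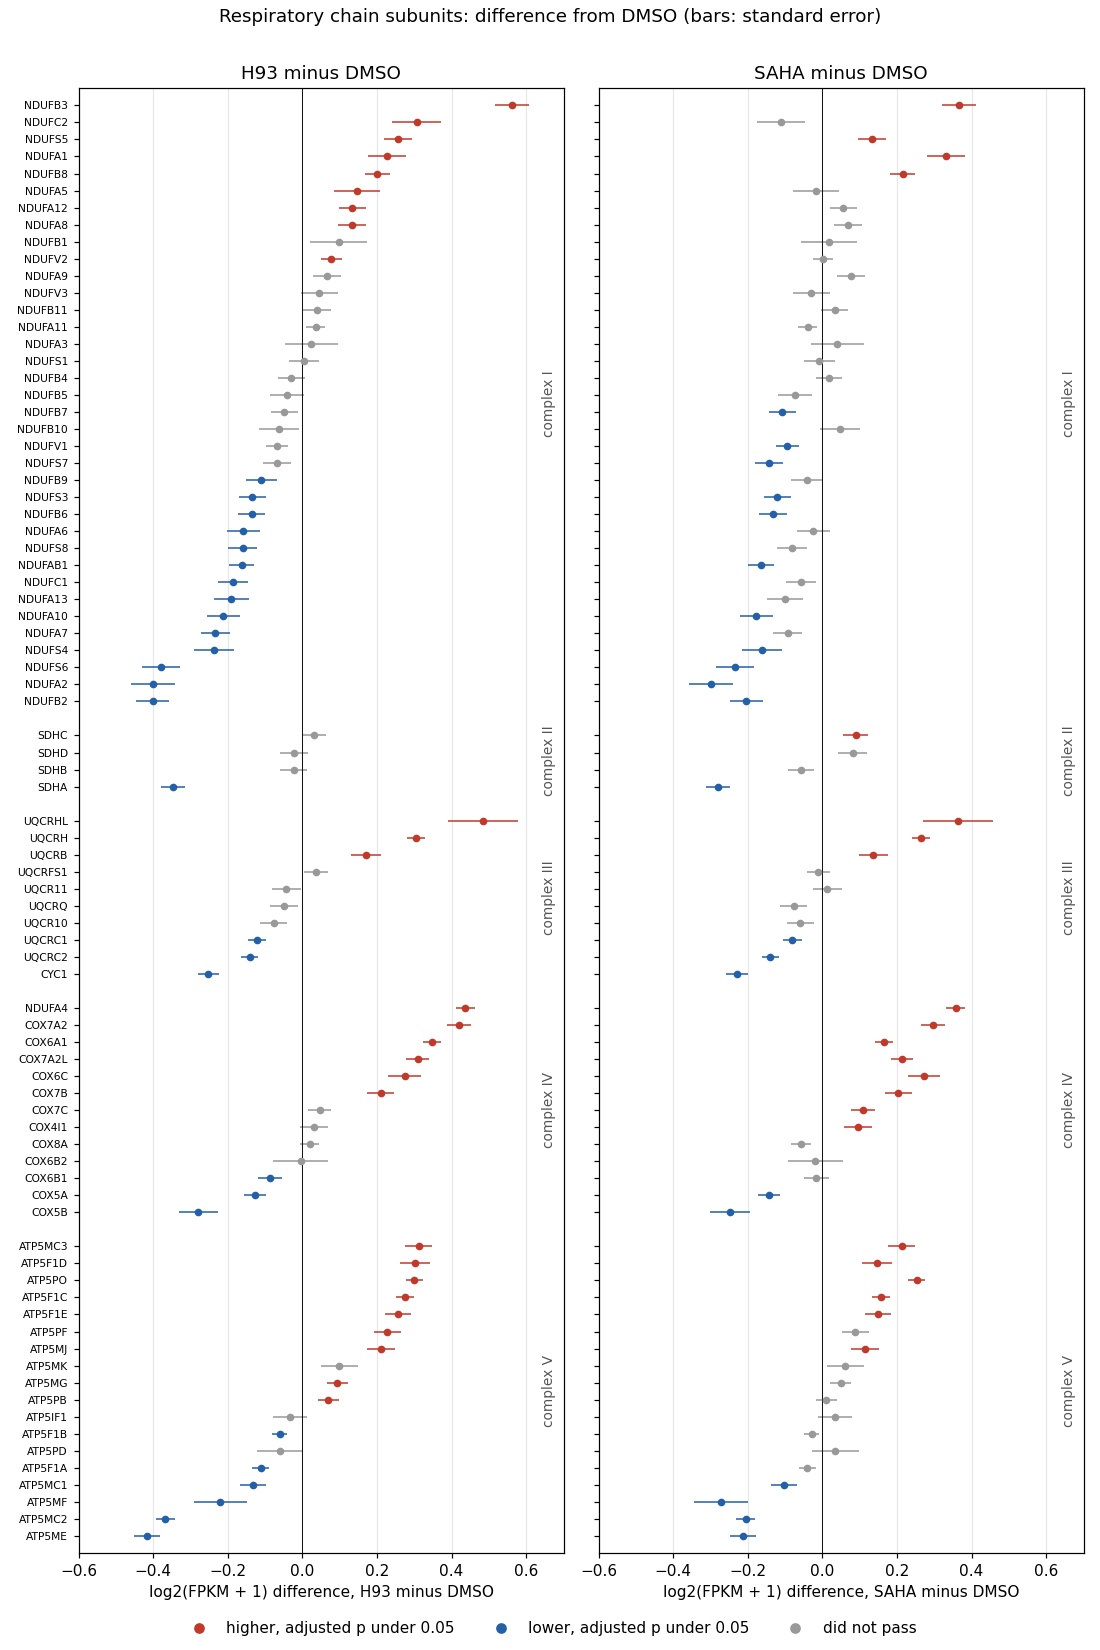
Difference in log2(FPKM + 1) from DMSO (horizontal axis) of 81 of the 82 tested members for H93 on the left and SAHA on the right, by complex and ordered by the H93 difference. Points are limma estimates from 3 libraries per group with bars of 1 standard error, red or blue where the adjusted p was under 0.05. Each complex has points on both sides of 0, and with H93 the points run from ATP5ME at -0.42 to NDUFB3 at 0.56.

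**Figure D3:**
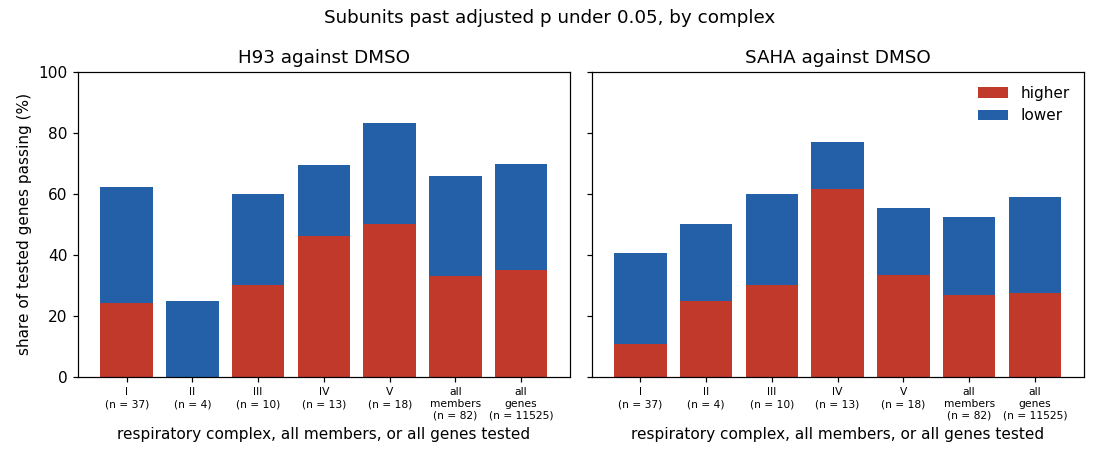
Share of tested genes that passed an adjusted p of 0.05 (vertical axis, percent), higher in red and lower in blue, for each complex, all 82 members and all 11525 genes. With H93 on the left the members stand at 65.9% beside 69.8% of all genes, and with SAHA on the right at 52.4% beside 58.8%.

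In complex I, 9 of 37 subunits rose and 14 fell with H93 relative to DMSO, and with SAHA 4 rose and 11 fell. That was 24.3% higher and 37.8% lower with H93, and 10.8% and 29.7% with SAHA. Of all tested genes, 34.9% were higher and 35% lower with H93, and 27.4% and 31.4% with SAHA. The counts of each module and complex below stand beside the same shares. The summed FPKM of the complex was 2205 to 2215 with H93, 2189 to 2311 with SAHA and 2242 to 2342 with DMSO. The N-module, which oxidises NADH, had 2 of 8 genes higher and 3 lower with H93. NDUFV1, which binds NADH and the flavin, had 95.3, 97.2 and 101 FPKM with H93, 92.1, 97.8 and 98.5 FPKM with SAHA and 104, 101 and 103 FPKM with DMSO. With H93 it did not pass (log2 difference -0.07, SE 0.0304, limma adjusted p = 0.0639), and with SAHA it was lower (log2 difference -0.09, SE 0.0304, limma adjusted p = 0.0184). Its H93 value passed in the absence of 1 library, at adjusted p = 0.0248 without H93 replicate 3 and 0.0323 without SAHA replicate 1, and the SAHA call was lost at adjusted p = 0.0781 without SAHA replicate 1, 0.0553 without DMSO replicate 1 and 0.0557 without DMSO replicate 3. NDUFS1, the largest iron-sulfur subunit, had 9.52, 9.91 and 9.23 FPKM with H93, 9.52, 9.68 and 9.19 FPKM with SAHA and 9.35, 9.25 and 9.98 FPKM with DMSO, with all groups overlapping (log2 difference 0.00, limma adjusted p = 0.929 for H93 and log2 difference -0.01, limma adjusted p = 0.875 for SAHA). The N-module falls that passed with H93 were in accessory subunits. NDUFA2 had 36.7, 36.6 and 43.2 FPKM with H93, 40.5, 43.9 and 40.5 FPKM with SAHA and 54.2, 48.9 and 51.3 FPKM with DMSO. Both treated groups lay below DMSO and overlapped each other. For NDUFA2 the log2 difference from DMSO was -0.40 with H93 (SE 0.0597, limma adjusted p = 6.55e-05) and -0.30 with SAHA (SE 0.0597, limma adjusted p = 0.000956). NDUFS6, a zinc-binding subunit, had 151, 143 and 148 FPKM with H93, 149.8, 169 and 170.3 FPKM with SAHA and 199.8, 178 and 198 FPKM with DMSO, again with both treated groups below DMSO. For NDUFS6 the log2 difference from DMSO was -0.38 with H93 (SE 0.051, limma adjusted p = 2.65e-05) and -0.24 with SAHA (SE 0.051, limma adjusted p = 0.00169). NDUFS4, needed for a stable N-module, fell with H93 (log2 difference -0.24, limma adjusted p = 0.0016) and with SAHA (log2 difference -0.16, limma adjusted p = 0.0204), the SAHA adjusted p being 0.0852 without SAHA replicate 2, 0.0765 without DMSO replicate 1 and 0.0535 without DMSO replicate 2. Without a filter the SAHA limma adjusted p of NDUFS4 was 0.0513. NDUFA12 rose with H93 (log2 difference 0.13, limma adjusted p = 0.00617), as did the iron-sulfur subunit NDUFV2 (log2 difference 0.08, limma adjusted p = 0.0232). The NDUFV2 adjusted p was 0.114 without H93 replicate 1, 0.0656 without DMSO replicate 2 and 0.0537 without DMSO replicate 3.

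The Q-module, where ubiquinone is reduced, had 1 of 8 genes higher and 4 lower with H93, and 2 lower with SAHA. NDUFA7 had 71.5, 76.0 and 78.1 FPKM with H93, 84.04, 78.4 and 86.7 FPKM with SAHA and 89.9, 86.7 and 89.2 FPKM with DMSO, and each H93 library was below each DMSO library (log2 difference -0.23, SE 0.039, limma adjusted p = 0.000166). The iron-sulfur subunit NDUFS8 fell with H93 (log2 difference -0.16, limma adjusted p = 0.00301), as did NDUFA6 (log2 difference -0.16, limma adjusted p = 0.00644). NDUFS3, a core subunit, fell with both compounds. For NDUFS3 the log2 difference from DMSO was -0.14 with H93 (SE 0.0362, limma adjusted p = 0.00507) and -0.12 with SAHA (SE 0.0362, limma adjusted p = 0.0125). Its SAHA adjusted p was 0.0581 without DMSO replicate 1. NDUFS7 fell with SAHA (log2 difference -0.14, limma adjusted p = 0.00521) and did not pass with H93 (adjusted p = 0.118). NDUFA5 was the rise of the module with H93 (log2 difference 0.15, limma adjusted p = 0.0498), a call that rests on single libraries and on the processing. Its adjusted p was between 0.0507 and 0.188 when 1 of these libraries was left out: H93 replicates 1, 2 and 3, SAHA replicate 3 and DMSO replicates 2 and 3. It was 0.051 with a pseudocount of 0.1 and 0.0938 without a filter. After median-ratio rescaling it was 0.0594, after quantile normalization 0.0902 and with the replicate block 0.0757.

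In the proton-pumping membrane arm, 6 of 21 genes rose and 7 fell with H93, and 4 rose and 5 fell with SAHA. NDUFB3, an accessory subunit, had 29.6, 31.1 and 30.3 FPKM with H93, 25.2, 28.4 and 25.5 FPKM with SAHA and 21.01, 19.3 and 20.4 FPKM with DMSO. The 3 groups did not overlap, with SAHA between H93 and DMSO, and its rise with H93 was the largest of all members. For NDUFB3 the log2 difference from DMSO was 0.56 with H93 (SE 0.0452, limma adjusted p = 2.63e-07) and 0.37 with SAHA (SE 0.0452, limma adjusted p = 2.14e-05). NDUFB2, of the same arm, had 68.6, 71.1 and 61.95 FPKM with H93, 77.6, 74.1 and 79.6 FPKM with SAHA and 90.2, 88.3 and 88.4 FPKM with DMSO. Here the order was turned round, again without overlap. For NDUFB2 the log2 difference from DMSO was -0.40 with H93 (SE 0.0432, limma adjusted p = 3.68e-06) and -0.20 with SAHA (SE 0.0432, limma adjusted p = 0.00145). NDUFA1 had 74.8, 73.7 and 78.02 FPKM with H93, 76.8, 83.7 and 83.8 FPKM with SAHA and 68.5, 58.8 and 66.3 FPKM with DMSO, with both treated groups above DMSO. For NDUFA1 the log2 difference from DMSO was 0.23 with H93 (SE 0.051, limma adjusted p = 0.00165) and 0.33 with SAHA (SE 0.051, limma adjusted p = 0.000127). NDUFS5 and NDUFB8 also rose with both compounds, by 0.26 and 0.20 with H93 and by 0.13 and 0.22 with SAHA on the log2 scale. The SAHA value of NDUFS5 was 0.08 without SAHA replicate 2 (limma adjusted p = 0.0257). NDUFAB1, the mitochondrial acyl carrier protein, fell by 0.16 with each compound, at 69.5 ± 2.84 FPKM with H93, 69.5 ± 2.92 with SAHA and 77.9 ± 0.487 with DMSO (SD, n = 3 each). NDUFA10 and NDUFB6 fell with both compounds as well. NDUFC1 and NDUFA13 fell with H93 by 0.19 each (the SAHA value of NDUFA13 passed after quantile normalization, at adjusted p = 0.0259), and NDUFA8 rose with H93 by 0.13. NDUFB9, the most abundant complex I mRNA at 172 FPKM, fell with H93 (log2 difference -0.11, limma adjusted p = 0.0306), with an adjusted p between 0.0573 and 0.11 when 1 of these libraries was left out: H93 replicates 2 and 3 and DMSO replicates 1 and 3. Without a filter the limma adjusted p of NDUFB9 was 0.0738. NDUFB7 fell with SAHA (log2 difference -0.11, limma adjusted p = 0.0229), with an adjusted p of 0.0769 without SAHA replicate 1 and 0.105 without DMSO replicate 1. After quantile normalization the limma adjusted p of NDUFB7 was 0.0787. With all libraries in, 7 genes passed in neither comparison with DMSO: NDUFA3, NDUFA11, NDUFB1, NDUFB4, NDUFB5, NDUFB10 and NDUFB11. Of these, NDUFB10 had an adjusted p of 0.0411 without DMSO replicate 2 for H93 and of 0.00625 without DMSO replicate 1 for SAHA, and NDUFB1 one of 0.0368 without DMSO replicate 1 for H93. NDUFC2 is described with the comparison of the compounds.

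Complex II, which is also the succinate dehydrogenase of the citric acid cycle, had 1 of its 4 genes lower and 0 higher with H93 in limma (also 0 higher at an unadjusted p of 0.05). With H93, 34.9% of all tested genes were higher and 35% lower. SDHA, the flavoprotein that oxidises succinate, had 45.5, 46.1 and 46.4 FPKM with H93, 45.9, 49.1 and 49.7 FPKM with SAHA and 59.6, 56.95 and 59.8 FPKM with DMSO. Both treated groups lay below DMSO. For SDHA the log2 difference from DMSO was -0.35 with H93 (SE 0.0324, limma adjusted p = 1.03e-06) and -0.28 with SAHA (SE 0.0324, limma adjusted p = 1.2e-05). SDHB, the iron-sulfur partner of SDHA, had 86.7, 79.7 and 83.9 FPKM with H93, 80.4, 84.9 and 79.3 FPKM with SAHA and 81.95, 85.9 and 86.7 FPKM with DMSO, and its 3 groups overlapped (log2 difference -0.02, limma adjusted p = 0.571 for H93 and log2 difference -0.06, limma adjusted p = 0.19 for SAHA). The membrane anchors did not pass with H93, at log2 difference 0.03, limma adjusted p = 0.4 for SDHC and log2 difference -0.02, limma adjusted p = 0.608 for SDHD. SDHC rose with SAHA (log2 difference 0.09, limma adjusted p = 0.0328), with an adjusted p between 0.0516 and 0.128 when 1 of these libraries was left out: SAHA replicate 2 and DMSO replicates 1, 2 and 3. Its limma adjusted p was 0.0601 without a filter and 0.0544 in a fit of the 6 libraries compared. SDHA lies on chromosome 5 from 218241 to 256700 in the GENCODE 29 annotation of GRCh38 and has 3 named pseudogenes there, which could share its reads and were not analysed here.

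In complex III, 3 of 10 genes rose and 3 fell with each compound, or 30% in each direction. Of all tested genes, 34.9% were higher and 35% lower with H93, and 27.4% and 31.4% with SAHA. The falls were in cytochrome c1 and both core proteins. CYC1, cytochrome c1, had 71.7, 70.5 and 72.7 FPKM with H93, 75.0, 69.9 and 73.6 FPKM with SAHA and 84.3, 86.7 and 85.5 FPKM with DMSO, with both treated groups below DMSO. For CYC1 the log2 difference from DMSO was -0.25 with H93 (SE 0.0282, limma adjusted p = 5.28e-06) and -0.23 with SAHA (SE 0.0282, limma adjusted p = 2.1e-05). UQCRC1 and UQCRC2, the core proteins that face the matrix, followed with smaller differences. UQCRC1 had 135, 141 and 137 FPKM with H93, 138, 146 and 142 FPKM with SAHA and 152, 149 and 149 FPKM with DMSO. For UQCRC1 the log2 difference from DMSO was -0.12 with H93 (SE 0.0251, limma adjusted p = 0.000848) and -0.08 with SAHA (SE 0.0251, limma adjusted p = 0.0154). Its SAHA adjusted p was 0.0607 without SAHA replicate 1 and 0.0554 without DMSO replicate 1. UQCRC2 fell by 0.14 with each compound. For UQCRC2 the log2 difference from DMSO was -0.14 with H93 (limma adjusted p = 0.000105) and -0.14 with SAHA (limma adjusted p = 0.000177). UQCRFS1, the Rieske iron-sulfur protein, had 38.98, 38.2 and 38.9 FPKM with H93, 37.98, 38.1 and 36.1 FPKM with SAHA and 36.6, 39.1 and 37.3 FPKM with DMSO and passed in neither comparison (log2 difference 0.04, limma adjusted p = 0.313 for H93 and log2 difference -0.01, limma adjusted p = 0.778 for SAHA). The rises were in small subunits. UQCRH, the hinge protein that holds cytochrome c1, had 255, 247 and 247 FPKM with H93, 237, 250.2 and 242 FPKM with SAHA and 205, 200.2 and 201 FPKM with DMSO, with both treated groups above DMSO. For UQCRH the log2 difference from DMSO was 0.30 with H93 (SE 0.0242, limma adjusted p = 2.46e-07) and 0.27 with SAHA (SE 0.0242, limma adjusted p = 1.53e-06). UQCRHL, an intronless copy of UQCRH, had 17.3, 16.8 and 14.4 FPKM with H93, 16.1, 14.2 and 14.03 FPKM with SAHA and 10.8, 9.87 and 13.3 FPKM with DMSO. For UQCRHL the log2 difference from DMSO was 0.48 with H93 (limma adjusted p = 0.000499) and 0.36 with SAHA (limma adjusted p = 0.0049). Reads of this near-identical pair may be split between them, so the values of both are uncertain. UQCRB, with 14.6, 13.5 and 13.5 FPKM with H93, 13.2, 14.1 and 13.3 FPKM with SAHA and 12.4, 12.1 and 12.1 FPKM with DMSO, rose with both compounds. For UQCRB the log2 difference from DMSO was 0.17 with H93 (limma adjusted p = 0.00192) and 0.14 with SAHA (limma adjusted p = 0.00989). UQCR10, UQCR11 and UQCRQ passed in neither comparison with all libraries in. UQCR10 reached an adjusted p of 0.0458 without H93 replicate 3 and 0.0325 without SAHA replicate 1 with H93, and UQCRQ one of 0.0442 without H93 replicate 1 and 0.0293 without DMSO replicate 1 with SAHA.

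Complex IV had 6 of 13 tested genes higher and 3 lower with H93, and 8 higher and 2 lower with SAHA. That was 46.2% higher and 23.1% lower with H93, beside 34.9% and 35% of all tested genes. With SAHA it was 61.5% and 15.4%, beside 27.4% and 31.4%. Its summed FPKM was 1969 to 1989 with H93, 1900 to 1984 with SAHA and 1814 to 1865 with DMSO. The H93 mean exceeded the DMSO mean by 134 FPKM, a net of rises and falls. The largest difference of a single gene was the rise of COX6A1 by 79.1 FPKM. COX6A1, the common form of a regulatory subunit, had 363, 368 and 375 FPKM with H93, 327, 317 and 330.4 FPKM with SAHA and 294, 282 and 292 FPKM with DMSO. The 3 groups did not overlap and SAHA lay between H93 and DMSO. For COX6A1 the log2 difference from DMSO was 0.35 with H93 (SE 0.0241, limma adjusted p = 6.63e-08) and 0.16 with SAHA (SE 0.0241, limma adjusted p = 8.49e-05). After quantile normalization the SAHA value of COX6A1 was 0.09 (limma adjusted p = 0.018). NDUFA4, a complex IV subunit that was first counted to complex I, had 69.1, 66.96 and 67.9 FPKM with H93, 62.6, 64.1 and 66.1 FPKM with SAHA and 50.3, 49.3 and 50.2 FPKM with DMSO, with the same order and no overlap. For NDUFA4 the log2 difference from DMSO was 0.44 with H93 (SE 0.026, limma adjusted p = 1.71e-08) and 0.36 with SAHA (SE 0.026, limma adjusted p = 2.15e-07). COX7A2 had 65.6, 66.5 and 62.2 FPKM with H93, 61.6, 59.05 and 57.2 FPKM with SAHA and 47.6, 48.4 and 48.3 FPKM with DMSO, also without overlap. For COX7A2 the log2 difference from DMSO was 0.42 with H93 (SE 0.0321, limma adjusted p = 1.69e-07) and 0.30 with SAHA (SE 0.0321, limma adjusted p = 7.19e-06). Its relative COX7A2L, which links complexes III and IV into supercomplexes, had 38.5, 37.7 and 38.6 FPKM with H93, 34.7, 36.3 and 36.2 FPKM with SAHA and 29.7, 30.7 and 31.7 FPKM with DMSO. For COX7A2L the log2 difference from DMSO was 0.31 with H93 (SE 0.0307, limma adjusted p = 1.8e-06) and 0.21 with SAHA (SE 0.0307, limma adjusted p = 7.62e-05). COX6C and COX7B rose by 0.27 and 0.21 with H93 and by 0.27 and 0.20 with SAHA. COX5B, a zinc-binding subunit, went down, with 68.1, 71.5 and 74.3 FPKM with H93, 65.8, 76.2 and 77.1 FPKM with SAHA and 89.5, 83.9 and 86.7 FPKM with DMSO. For COX5B the log2 difference from DMSO was -0.28 with H93 (SE 0.0531, limma adjusted p = 0.000469) and -0.25 with SAHA (SE 0.0531, limma adjusted p = 0.0016). COX5A, which joins the mitochondrially encoded core early in assembly together with COX4I1, had 85.5, 86.7 and 88.8 FPKM with H93, 87.1, 84.2 and 86.8 FPKM with SAHA and 95.7, 91.3 and 98.5 FPKM with DMSO. For COX5A the log2 difference from DMSO was -0.13 with H93 (limma adjusted p = 0.00194) and -0.14 with SAHA (limma adjusted p = 0.00122). COX4I1 itself had 266, 258 and 262 FPKM with H93, 259, 278 and 285 FPKM with SAHA and 269, 247 and 253 FPKM with DMSO, with overlapping groups. It did not pass with H93 (adjusted p = 0.468) and was called higher with SAHA (log2 difference 0.10, limma adjusted p = 0.0418), with an adjusted p between 0.0508 and 0.163 when 1 of these libraries was left out: H93 replicates 1, 2 and 3, SAHA replicates 2 and 3 and DMSO replicates 2 and 3. After quantile normalization the COX4I1 difference with SAHA was 0.03 (limma adjusted p = 0.407). The limma adjusted p was 0.0936 without a filter, 0.0654 in a fit of the 6 libraries compared and 0.0608 with the replicate block. COX7C rose with SAHA by 0.11, or by 0.07 after quantile normalization (limma adjusted p = 0.0409). COX6B1 fell with H93 (log2 difference -0.09, limma adjusted p = 0.032), with an adjusted p between 0.0601 and 0.116 when 1 of these libraries was left out: H93 replicates 1 and 3 and DMSO replicates 1 and 3. Its limma adjusted p was 0.0677 without a filter and 0.0517 with the replicate block. COX8A did not pass against DMSO with all libraries in (adjusted p = 0.516 for H93 and 0.0717 for SAHA), and its SAHA value reached adjusted p = 0.0266 without DMSO replicate 1. The testis form COX6B2 had 0.98, 1.06 and 1.14 FPKM with H93, 0.995, 0.988 and 1.13 FPKM with SAHA and 1.21, 1.16 and 0.842 FPKM with DMSO and did not pass.

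In complex V, 9 of 18 tested genes rose and 6 fell with H93, and with SAHA 6 rose and 4 fell. That was 50% higher and 33.3% lower with H93, beside 34.9% and 35% of all tested genes. With SAHA it was 33.3% and 22.2%, beside 27.4% and 31.4%. With H93, the genes of the catalytic ring of the F1 head were called lower and its rotor genes higher. ATP5F1A, the alpha subunit, had 70.6, 72.8 and 71.6 FPKM with H93, 74.8, 75.9 and 75.2 FPKM with SAHA and 77.5, 78.7 and 76.2 FPKM with DMSO, and each H93 library was below each DMSO library (log2 difference -0.11, SE 0.0229, limma adjusted p = 0.000834). ATP5F1B, the catalytic beta subunit, had 629.8, 628 and 627 FPKM with H93, 629.8, 652 and 646 FPKM with SAHA and 664, 647 and 655 FPKM with DMSO (log2 difference -0.06, SE 0.0199, limma adjusted p = 0.0162 with H93, where the adjusted p was 0.0651 without DMSO replicate 1). Neither passed with SAHA, at adjusted p = 0.141 for ATP5F1A and 0.244 for ATP5F1B, where the log2 difference was -0.03. After quantile normalization ATP5F1B was called lower with SAHA (log2 difference -0.08, limma adjusted p = 0.00171). The rotor genes of the head, ATP5F1C, ATP5F1D and ATP5F1E, rose with both compounds. The genes of the c-ring, which also turns, are given separately below and did not all rise. ATP5F1C, the gamma subunit that forms the shaft, had 156, 158 and 153 FPKM with H93, 145, 143 and 142 FPKM with SAHA and 131, 125 and 129 FPKM with DMSO. H93 lay above SAHA and SAHA above DMSO with no overlap. For ATP5F1C the log2 difference from DMSO was 0.27 with H93 (SE 0.0238, limma adjusted p = 5.26e-07) and 0.16 with SAHA (SE 0.0238, limma adjusted p = 0.000117). ATP5F1D, the delta subunit, had 142, 133 and 144 FPKM with H93, 133, 120.5 and 123 FPKM with SAHA and 109.7, 113 and 117 FPKM with DMSO. For ATP5F1D the log2 difference from DMSO was 0.30 with H93 (limma adjusted p = 2.6e-05) and 0.15 with SAHA (limma adjusted p = 0.00752). ATP5F1E, the epsilon subunit, had 59.1, 55.3 and 57.1 FPKM with H93, 51.3, 51.9 and 55.9 FPKM with SAHA and 48.1, 47.5 and 47.6 FPKM with DMSO. For ATP5F1E the log2 difference from DMSO was 0.26 with H93 (limma adjusted p = 2.53e-05) and 0.15 with SAHA (limma adjusted p = 0.00248). Both genes were higher in each treated library than in each DMSO library.

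The stalk that keeps the head from turning had 3 of 4 genes higher with H93 and 1 higher with SAHA. ATP5PO, the subunit at the top of the stalk, had 268, 268 and 264 FPKM with H93, 260, 258 and 257 FPKM with SAHA and 212, 214 and 224 FPKM with DMSO, and both treated groups lay above DMSO. For ATP5PO the log2 difference from DMSO was 0.30 with H93 (SE 0.0234, limma adjusted p = 1.96e-07) and 0.25 with SAHA (SE 0.0234, limma adjusted p = 1.74e-06). ATP5PF, coupling factor 6, had 83.1, 80.6 and 75.1 FPKM with H93, 71.5, 73.9 and 70.8 FPKM with SAHA and 70.2, 66.04 and 67.01 FPKM with DMSO. It rose with H93 (log2 difference 0.23, SE 0.0369, limma adjusted p = 0.000129) and did not pass with SAHA (log2 difference 0.09, SE 0.0369, limma adjusted p = 0.0563), where the adjusted p was 0.0414 without H93 replicate 1, 0.0234 without H93 replicate 3 and 0.0293 without DMSO replicate 1. ATP5PB rose slightly with H93 (log2 difference 0.07, limma adjusted p = 0.0441), with an adjusted p between 0.0609 and 0.196 when 1 of these libraries was left out: H93 replicates 1, 2 and 3 and DMSO replicates 1 and 3. Its limma adjusted p was 0.0636 after median-ratio rescaling, 0.0751 after quantile normalization and 0.0525 in a fit of the 6 libraries compared. ATP5PD had 134, 136 and 134 FPKM with H93, 163, 145 and 127 FPKM with SAHA and 140.4, 139 and 143 FPKM with DMSO and did not pass (adjusted p = 0.4 for H93 and 0.649 for SAHA), although its SAHA adjusted p was 0.019 without SAHA replicate 3. Each H93 library of ATP5PD was below each DMSO library, and a fit of those 6 libraries alone gave an adjusted p of 0.0217. ATP5IF1, the inhibitor that blocks ATP hydrolysis, had 116, 116 and 119.6 FPKM with H93, 114, 131 and 125 FPKM with SAHA and 117, 117 and 127 FPKM with DMSO, with overlapping groups (log2 difference -0.03, limma adjusted p = 0.516 for H93 and log2 difference 0.03, limma adjusted p = 0.545 for SAHA). Among the small membrane subunits, ATP5ME, subunit e, had 156, 159 and 163 FPKM with H93, 177, 179.9 and 197 FPKM with SAHA and 214, 212 and 215 FPKM with DMSO. The groups did not overlap, and the fall with H93 was the largest of all members. For ATP5ME the log2 difference from DMSO was -0.42 with H93 (SE 0.0347, limma adjusted p = 3.58e-07) and -0.21 with SAHA (SE 0.0347, limma adjusted p = 0.000215). ATP5MF, subunit f, was lower with both compounds (log2 difference -0.22, limma adjusted p = 0.0152 with H93, and log2 difference -0.27, limma adjusted p = 0.0059 with SAHA), and the H93 adjusted p was 0.0682 without H93 replicate 2, 0.0559 without DMSO replicate 1 and 0.0568 without DMSO replicate 2. Without a filter the H93 limma adjusted p of ATP5MF was 0.0505. ATP5MJ rose with both (log2 difference 0.21, limma adjusted p = 0.000279 with H93, and log2 difference 0.11, limma adjusted p = 0.0201 with SAHA), and the SAHA adjusted p was 0.0773 without SAHA replicate 2, 0.0827 without DMSO replicate 1 and 0.0665 without DMSO replicate 3. ATP5MG, subunit g, rose with H93 by 0.09. ATP5MK did not pass, although its H93 adjusted p was 0.0268 without H93 replicate 3 and 0.0488 without SAHA replicate 2.

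The c-ring is made from 3 genes, ATP5MC1, ATP5MC2 and ATP5MC3, which differ in their import sequences and encode the same mature subunit c. They moved in different directions. ATP5MC1, the most abundant, had 159, 167 and 168 FPKM with H93, 173, 158 and 174 FPKM with SAHA and 180.2, 179 and 182 FPKM with DMSO. For ATP5MC1 the log2 difference from DMSO was -0.13 with H93 (SE 0.0348, limma adjusted p = 0.00466) and -0.10 with SAHA (SE 0.0348, limma adjusted p = 0.0237). Its SAHA adjusted p was 0.0851 without SAHA replicate 2, 0.0503 without DMSO replicate 1 and 0.0685 without DMSO replicate 3. Without a filter the SAHA limma adjusted p of ATP5MC1 was 0.0556. Both treated groups lay below DMSO. ATP5MC2 had 45.5, 45.6 and 45.5 FPKM with H93, 51.6, 49.7 and 51.96 FPKM with SAHA and 59.3, 59.7 and 58.1 FPKM with DMSO, with H93 below SAHA and SAHA below DMSO. For ATP5MC2 the log2 difference from DMSO was -0.37 with H93 (SE 0.0251, limma adjusted p = 5.91e-08) and -0.21 with SAHA (SE 0.0251, limma adjusted p = 1.91e-05). ATP5MC3 had 55.3, 52.2 and 53.2 FPKM with H93, 47.9, 49.6 and 52.3 FPKM with SAHA and 44.3, 41.99 and 42.7 FPKM with DMSO, and both treated groups were above DMSO. For ATP5MC3 the log2 difference from DMSO was 0.31 with H93 (SE 0.0354, limma adjusted p = 6.05e-06) and 0.21 with SAHA (SE 0.0354, limma adjusted p = 0.000246). The sum of the 3 genes was 263.8 ± 3.297 FPKM with H93, 269 ± 10.9 FPKM with SAHA and 283 ± 1.496 FPKM with DMSO (SD, n = 3 each). ATP5MC3 contributed 20.3% ± 0.833 of that sum with H93, 18.6% ± 0.889 with SAHA and 15.2% ± 0.347 with DMSO. ATP5MC2 contributed 17.3% ± 0.225 with H93, 18.98% ± 0.316 with SAHA and 20.9% ± 0.358 with DMSO. ATP5MC3 stood above ATP5MC2 in each H93 library and below it in each DMSO library, and in the SAHA libraries their order was mixed. The sum and the shares were not tested, and an exact permutation test of 3 against 3 libraries allows no p below 0.1.

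**Figure D4:**
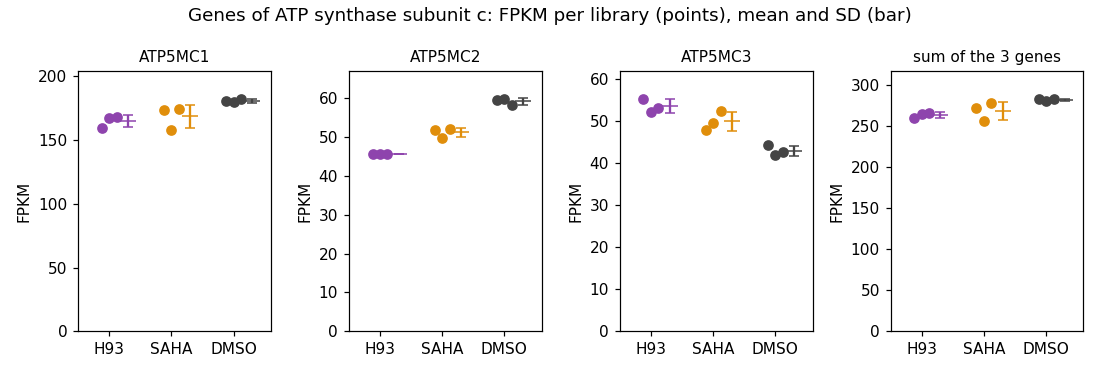
FPKM (vertical axes, from 0) of the 3 genes of ATP synthase subunit c and of their sum in each library of H93, SAHA and DMSO, as points, with the mean and SD of 3 libraries beside them. ATP5MC2 lies at 45.5 to 45.6 FPKM with H93 and 58.1 to 59.7 FPKM with DMSO, while ATP5MC3 lies at 52.2 to 55.3 FPKM with H93 and 41.99 to 44.3 FPKM with DMSO.

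The direct comparison asked whether H93 differed from SAHA. It sets 1 dose of each compound against the other, 20 µM against 500 nM, so compound and dose cannot be told apart. Of 82 members, 13 were higher and 8 were lower with H93 than with SAHA, or 25.6% called beside 31.5% of all tested genes (17.6% higher and 13.9% lower). The median log2 difference was 0.00 over the members and 0.02 over all genes. The libraries did not overlap for 15 members higher and 6 lower, beside 44.4% of all genes (25.6% higher and 18.8% lower). In limma 0 of the 14 genes of complexes II and III were called, and 1 of them, in complex II and on the lower side, had an unadjusted p under 0.05. Their adjusted p was 0.0261 without SAHA replicate 1 for SDHA, 0.0322 without SAHA replicate 1 for UQCR11, and for SDHD 0.0361 without H93 replicate 3 and 0.0249 without SAHA replicate 1. SDHD was also called lower with all libraries in under other processing. Its limma adjusted p was 0.0385 after median-ratio rescaling, 0.0394 after quantile normalization and 0.0423 with the filter on a mean of 5 FPKM. Complex IV had 5 of 13 genes higher and 0 lower with H93 (0 lower at an unadjusted p of 0.05 too), complex V had 4 of 18 higher and 3 lower, and complex I had 4 of 37 higher and 5 lower. The one-sided count of complex IV rests on single libraries and on the scaling. COX4I1 and COX7C were called lower without SAHA replicate 1 (adjusted p = 0.0377 and 0.00907) and COX6B1 without SAHA replicate 2 (adjusted p = 0.0225). The rises of COX7A2L, NDUFA4 and COX8A were not called without H93 replicate 1 (adjusted p = 0.0833, 0.114 and 0.0556). These 3 rises were also not called after median-ratio rescaling (limma adjusted p = 0.0639, 0.087 and 0.0951).

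The largest difference between the compounds was in NDUFC2, a membrane-arm subunit of complex I at low level, which had 3.996, 4.58 and 3.81 FPKM with H93, 2.94, 3.03 and 2.54 FPKM with SAHA and 3.16, 3.17 and 3.09 FPKM with DMSO. Each H93 library was above and each SAHA library below all DMSO libraries. H93 exceeded SAHA (log2 difference 0.42, SE 0.0654, limma adjusted p = 0.000737) and DMSO (log2 difference 0.31, SE 0.0654, limma adjusted p = 0.0011), and SAHA against DMSO did not pass (log2 difference -0.11, SE 0.0654, limma adjusted p = 0.163). The next largest were in genes already described. ATP5ME was lower with H93 than with SAHA (log2 difference -0.21, SE 0.0347, limma adjusted p = 0.00116), NDUFB2 was lower (log2 difference -0.20, SE 0.0432, limma adjusted p = 0.005) and NDUFB3 was higher (log2 difference 0.20, SE 0.0452, limma adjusted p = 0.00664). COX6A1 was the complex IV gene with the largest difference (log2 difference 0.18, SE 0.0241, limma adjusted p = 0.000259), and ATP5MC2 was lower with H93 (log2 difference -0.16, SE 0.0251, limma adjusted p = 0.000694). These 6 calls, and that of ATP5F1C (log2 difference 0.12, limma adjusted p = 0.00341), held in each refit. ATP5F1D was higher with H93 (log2 difference 0.15, limma adjusted p = 0.013), and its adjusted p was 0.0514 without H93 replicate 3. COX7A2 was higher (log2 difference 0.12, limma adjusted p = 0.0121), with an adjusted p of 0.0522 without H93 replicate 2, and so was ATP5PF (log2 difference 0.14, limma adjusted p = 0.0137), with 0.0577 without H93 replicate 1. NDUFA7 was lower (log2 difference -0.14, limma adjusted p = 0.0171), with an adjusted p of 0.0695 without H93 replicate 1 and 0.0698 without SAHA replicate 3. The other 10 calls were lost in 5 to 12 of the refits each: NDUFS5, COX7A2L, NDUFA4, ATP5F1E, NDUFA11 and COX8A on the higher side, and NDUFS6, NDUFA6, NDUFC1 and ATP5F1A on the lower side. Their log2 differences lay between -0.14 and 0.12. Leaving out H93 replicate 1, 2 or 3 ended 8, 7 and 10 of these calls, leaving out SAHA replicate 1, 2 or 3 ended 7 each, and leaving out DMSO replicate 1, 2 or 3 ended 1, 1 and 2, with adjusted p between 0.0507 and 0.165.

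**Figure D5:**
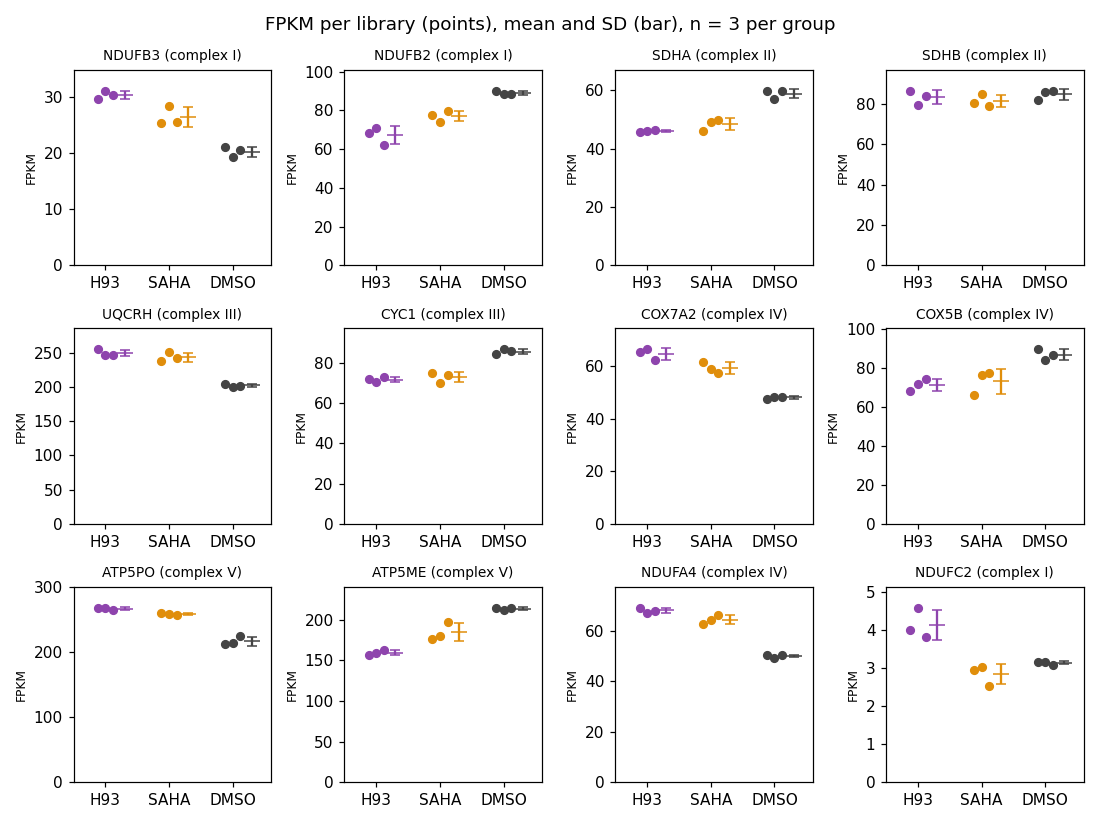
FPKM (vertical axes, from 0) in each library of H93, SAHA and DMSO for 12 members of complexes I to V, as points, with the mean and SD of 3 libraries per group beside them. NDUFB3, UQCRH, COX7A2, ATP5PO and NDUFA4 stand higher with H93 than with DMSO, NDUFB2, SDHA, CYC1, COX5B and ATP5ME stand lower, SDHB overlaps between groups, and NDUFC2 is at 3.81 to 4.58 FPKM with H93 and 2.54 to 3.03 FPKM with SAHA.

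Genes that build, feed or regulate the chain were counted from lists of textbook members. The counts stand beside 34.9% of all tested genes called higher and 35% called lower with H93. With SAHA, 27.4% of all tested genes were called higher and 31.4% lower. Of 46 assembly factors, 10 rose and 23 fell with H93, with a median log2 difference of -0.10, and with SAHA 4 rose and 19 fell. ECSIT, a complex I assembly factor, had 9.54, 9.41 and 7.97 FPKM with H93, 11.8, 10.2 and 11.4 FPKM with SAHA and 14.5, 14.6 and 15.01 FPKM with DMSO. For ECSIT the log2 difference from DMSO was -0.66 with H93 (limma adjusted p = 1.15e-06) and -0.37 with SAHA (limma adjusted p = 0.000245). COA6, a copper-pathway factor of complex IV, averaged 14.9 ± 0.827 FPKM with H93, 17.8 ± 0.418 with SAHA and 23.4 ± 1.93 with DMSO, and UQCC2, a complex III factor, averaged 29.7 ± 1.2 FPKM with H93, 35.99 ± 0.178 with SAHA and 40.4 ± 0.242 with DMSO (SD, n = 3 each). The groups of all 3 genes did not overlap. A list of 17 electron carrier genes held those for ubiquinone and cytochrome c and the electron-transfer flavoprotein genes ETFA, ETFB and ETFDH. Of these 17 genes, 4 rose and 10 fell with H93 (median -0.17), and 3 rose and 9 fell with SAHA. COQ8B, COQ8A and COQ6, of the ubiquinone pathway, fell with H93 by 0.57, 0.53 and 0.45, and with SAHA by 0.44, 0.49 and 0.24.

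Of 18 genes of the citric acid cycle and pyruvate entry, 5 rose and 11 fell with H93 (median -0.15), and 4 rose and 9 fell with SAHA. Succinyl-CoA ligase, which feeds succinate to complex II, was split: SUCLG2, its GTP-specific beta subunit, had 9.23, 10.3 and 8.94 FPKM with H93, 12.1, 12.6 and 12.2 FPKM with SAHA and 17.2, 17.0 and 15.1 FPKM with DMSO. For SUCLG2 the log2 difference from DMSO was -0.73 with H93 (limma adjusted p = 1.58e-07) and -0.39 with SAHA (limma adjusted p = 6.97e-05). SUCLG1, the shared alpha subunit, had 43.3, 43.6 and 46.1 FPKM with H93, 39.5, 40.1 and 40.7 FPKM with SAHA and 33.9, 31.4 and 35.3 FPKM with DMSO. For SUCLG1 the log2 difference from DMSO was 0.39 with H93 (limma adjusted p = 2.07e-06) and 0.25 with SAHA (limma adjusted p = 0.000151). The first lay below DMSO and the second above it in each treated library. IDH3G, of the NAD-dependent isocitrate dehydrogenase, fell with H93 by 0.42 and with SAHA by 0.35. Of 17 regulators of mitochondrial gene expression, 1 rose and 11 fell with H93 (median -0.15), and 0 rose and 9 fell with SAHA (in limma, 0 rose at an unadjusted p of 0.05). GABPA, the ETS factor whose letters are marked in the promoters above, had 9.27, 10.1 and 10.9 FPKM with H93, 11.3, 11.7 and 11.5 FPKM with SAHA and 14.3, 15.4 and 13.4 FPKM with DMSO. For GABPA the log2 difference from DMSO was -0.47 with H93 (limma adjusted p = 1.14e-05) and -0.30 with SAHA (limma adjusted p = 0.000754). PPRC1, a coactivator, and TFB2M, a mitochondrial transcription factor, fell with H93 by 0.43 and 0.42, and with SAHA by 0.24 and 0.28. Of 22 genes of protein import and cristae, 1 rose and 14 fell with H93 (median -0.14), and 0 rose and 11 fell with SAHA (in limma, 1 rose at an unadjusted p of 0.05). CHCHD4, MICOS13 and the chaperonin gene HSPD1 fell with H93 by 0.49, 0.49 and 0.46, and with SAHA by 0.28, 0.32 and 0.34. These list medians stand beside 0.00 for all genes and -0.01 for the subunits with H93. With SAHA the list medians lay between -0.10 and -0.08, beside -0.01 for all genes and for the subunits. The lists were chosen with earlier results of these data known, and no list was tested as a set.

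How reads were assigned can bear on single members. Whether counting used strand is not stated by the sources at hand. In GENCODE 29, exons of 34 of the 87 members overlap an exon of a gene on the opposite strand. Among the tested genes these were 11 of the 27 that rose with H93, 9 of the 27 that fell and 13 of the 28 that did not pass. NDUFB3 overlaps FAM126B, ATP5ME overlaps MYL5, and ATP5PF overlaps GABPA, which went the other way. NDUFB2 overlaps BRAF and NDUFB2-AS1 on the opposite strand. NDUFC2 shares exons with the readthrough gene NDUFC2-KCTD14 and lies opposite THRSP, whose FPKM was at most 0.141. ATP5MF likewise overlaps exons of ATP5MF-PTCD1 and PTCD1 on its own strand. Named pseudogenes exist for 18 of the 27 members that rose with H93, for 14 of the 27 that fell and for 14 of the 28 that did not pass. Their part in the values was not tested.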

How the data were processed

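RNA from 9 DU145 samples was extracted with TRIzol and made into stranded TruSeq mRNA libraries, per the labels' protocols. The authors deposited 1 table of FPKM per gene and library. The build GRCh38.p13 and the tools HISAT2, Cufflinks and Trimmomatic 0.36 are listed, per the submitters' processing notes, with no role for any of them. Not given in the sources used here are the annotation and the strand setting of the counting. Columns were matched to samples by name. FPKM values scale out library size, so a change of total RNA per cell would not show, and absolute depth and counting error are unknown.

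Genes at 1 FPKM or more in at least 3 of the 9 libraries were kept (11525 genes). Values were analysed as log2(FPKM + 1), which understates changes of low genes. The model was limma (3.58.1, under R 4.3.3) with 1 mean per group over all libraries and a mean-variance trend. P-values were two-sided, adjusted by Benjamini-Hochberg across kept genes, and read at 0.05. A gene "rose" or "fell" only where it passed. The results were recomputed with pseudocounts of 0.1 and 5, without a filter, with a filter on the mean (5 FPKM), after rescaling by median ratios or by quantiles, with robust moderation, on 6 libraries at a time, with the replicate number as block, and without each library. Replicate numbers did not pair libraries.

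The members and gene lists were chosen with earlier results of these data known. Named by rule were, per comparison and complex, the largest called rise and fall, the 5 largest called differences per comparison, core subunits, tissue-restricted paralogues with their counterparts, the highest and lowest gene of each complex, and up to 3 genes per other list. Other members were added to account for each module, and 1 member is counted but not reported by name here. Positions came from GENCODE 29 by Entrez identifier, and promoter windows from RefSeq (GRCh38.p14) by the same identifier. Software was Python 3.11.15, pandas 2.3.3, numpy 2.4.6 and, for the plots, matplotlib 3.10.9.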

Additional observations from a re-analysis of the deposited data

Results flagged for a closer look

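NDUFC2, an accessory subunit of the membrane arm of complex I, was flagged because its H93 libraries all lay above and its SAHA libraries all below the DMSO libraries. That rule already places H93 above SAHA in the same libraries, so the direct difference is no separate evidence for the flagged pattern. The direct difference between H93 and SAHA was 0.42 on the log2(FPKM + 1) scale (log2 difference 0.42, SE 0.0654, limma adjusted p = 0.000737, Benjamini-Hochberg over 11525 genes). Over the alternatives that could be run for it the difference ranged from 0.22 to 0.53 and the adjusted p from 0.000632 to 0.00488. The value of SAHA against DMSO alone did not pass (adjusted p = 0.163). NDUFC2 stood at 2.54 to 4.58 FPKM and shares exons with a readthrough gene, and the part of this in the difference was not tested.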

How the results depend on the processing

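Against DMSO, the counts of members stayed within 1.5 times their reported values under each alternative: 23 to 30 lower and 24 to 28 higher with H93, where 27 and 27 are reported, and 18 to 23 lower and 19 to 25 higher with SAHA, where 21 and 22 are reported. Leaving out each library in turn gave 24 to 28 higher and 23 to 29 lower with H93, and 19 to 25 higher and 18 to 23 lower with SAHA. Between H93 and SAHA the counts moved. The 13 higher members became 8 with median-ratio rescaling, and 7 to 13 when a library was left out (7 without H93 replicate 1, 8 without H93 replicate 2 and 8 without SAHA replicate 1). The 8 lower members became 5 with no filter, and 4 to 13 when a library was left out (4 without H93 replicate 1, 5 without H93 replicate 2, 13 without SAHA replicate 1 and 4 without SAHA replicate 3). The cause was not tested. Calls that held in every alternative were 47 of 54 for H93 against DMSO, 34 of 43 for SAHA against DMSO and 7 of 21 for H93 against SAHA, and no called value changed sign. Of members that did not pass, 6 of 28, 12 of 39 and 21 of 61 passed in at least 1 alternative of these comparisons. With the replicate block, 26 higher and 26 lower members were called for H93 against DMSO, 22 and 22 for SAHA against DMSO, and 12 and 7 for H93 against SAHA. Same-numbered libraries did not deviate together, with correlations of deviations between -0.098 and 0.036, so the numbers were not used for pairing. Absolute depth is unknown, so counting error cannot be given, and the lowest members are the least certain.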
